A study of Mus musculus with 16 samples.

Results

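The sidekick, Elfn, Lrrtm and Flrt genes encode cell-surface proteins that help neurons choose and build synapses. The 10 genes described here, Sdk1, Sdk2, Elfn1, Elfn2, Lrrtm1, Lrrtm2, Lrrtm3, Lrrtm4, Flrt2 and Flrt3, were chosen by name, with their results across the study's groups already known. Their levels and differences are therefore given as a description. They are 10 of 55335 genes in the count table and 10 of the 19479 that passed a filter on low counts; every one of the 10 passed it. RNA came from mouse forebrain neurons cultured around birth and transduced with lentivirus. The groups, of 4 libraries each, were an empty vector (Empty_Vector), a vector for a short hairpin RNA (shRNA), and vectors for that hairpin carrying 2 point mutations (shRNA_2bp) or 5 (shRNA_5bp). All groups share the culture and the lentiviral transduction, and no untransduced culture was among them. Cells cut a short hairpin RNA with their microRNA enzymes, and the product guides silencing of transcripts that pair with it. The labels name neither the hairpin's target nor the promoter that drives it. They leave unsaid whether the replicates were separate cultures, so p-values measure the spread between these libraries, which may be technical.

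Sidekicks are large immunoglobulin-superfamily proteins that bind copies of themselves across the cleft; in the retina they steer partners to the same synaptic layer, and MAGI scaffolds hold them at the synapse. The other 3 families carry leucine-rich repeats. LRRTMs sit on the postsynaptic side of excitatory synapses and bind presynaptic neurexins or heparan sulphate proteoglycans. ELFNs are postsynaptic and bind presynaptic group III metabotropic glutamate receptors, with Elfn1 best known from interneurons that make somatostatin. FLRTs bind latrophilins, UNC5 receptors and teneurins, and act in cortical migration, axon guidance and synapse formation.

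Promoters are shown for Sdk2, which had the largest difference of the 10 genes, for its relative Sdk1, for Elfn1, low with every hairpin, and for Lrrtm4, the Lrrtm gene with the widest spread over the 16 libraries (root-mean-square 0.62 log2 units about its mean). Each window is RefSeq sequence on GRCm38.p6, 5′ to 3′ on the gene's strand, from 250 bases before to 50 after an annotated start. Capitals mark letters of the motifs searched on both strands: TATAAA for the TATA box, GGGCGG for the GC box, CCAAT for the box of that name, CACGTG for the E-box and TGACG from the cyclic AMP response element. No capital run below is shared by overlapping motifs. The windows are Sdk2 at chr11:114066980-114067279 on the minus strand, Sdk1 at chr5:141241284-141241583, Elfn1 at chr5:139907616-139907915 and Lrrtm4 at chr6:80018627-80018926, the last 3 on the plus strand.
Sdk2: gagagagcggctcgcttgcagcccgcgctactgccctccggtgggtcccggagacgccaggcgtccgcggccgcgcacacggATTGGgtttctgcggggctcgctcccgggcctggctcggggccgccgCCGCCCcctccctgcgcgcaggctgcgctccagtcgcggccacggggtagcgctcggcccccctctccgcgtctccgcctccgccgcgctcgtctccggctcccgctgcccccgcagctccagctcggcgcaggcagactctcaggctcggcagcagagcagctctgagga
Sdk1: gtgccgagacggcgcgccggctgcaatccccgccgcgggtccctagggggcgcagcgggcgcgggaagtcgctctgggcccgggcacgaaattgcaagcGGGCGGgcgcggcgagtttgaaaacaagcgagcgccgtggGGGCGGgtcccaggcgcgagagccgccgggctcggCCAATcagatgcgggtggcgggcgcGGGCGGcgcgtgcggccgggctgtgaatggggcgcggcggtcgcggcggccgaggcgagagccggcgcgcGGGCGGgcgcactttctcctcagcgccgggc
Elfn1: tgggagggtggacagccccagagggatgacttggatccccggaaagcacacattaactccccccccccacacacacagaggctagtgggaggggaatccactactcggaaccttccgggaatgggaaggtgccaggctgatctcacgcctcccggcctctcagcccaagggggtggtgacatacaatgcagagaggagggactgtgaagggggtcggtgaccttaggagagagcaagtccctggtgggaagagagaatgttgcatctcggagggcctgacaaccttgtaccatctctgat
Lrrtm4: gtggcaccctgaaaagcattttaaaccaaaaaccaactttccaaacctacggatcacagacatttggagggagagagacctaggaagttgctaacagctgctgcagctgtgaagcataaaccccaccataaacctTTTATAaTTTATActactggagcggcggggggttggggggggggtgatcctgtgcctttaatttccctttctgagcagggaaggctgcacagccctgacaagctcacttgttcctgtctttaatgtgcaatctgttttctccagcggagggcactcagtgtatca

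Windows of 9 of the 10 genes were used. Windows on chromosome 18, where Lrrtm2 lies, were left out, so no Lrrtm2 promoter was examined. Both sidekick windows were rich in GC, at 78.3% for Sdk1 and 76.7% for Sdk2, against a median of 52.7% over 32851 windows. They held 54 and 41 CpG dinucleotides, against a median of 7. Sdk1 had 4 GC boxes and Sdk2 had 1, and each had 1 CCAAT box. A GC box was found in 35.7% of all windows and a CCAAT box in 37.4%. The Elfn1 window, at 59.0% GC with 7 CpGs, held none of the 5 motifs. The first Lrrtm4 window, at 48.7% GC with 4 CpGs, held the TATA letters 2 times, which 13.6% of all windows held; a second Lrrtm4 start had none of the motifs. Among windows not printed, Elfn2 (73.3% GC) held 3 GC boxes, Lrrtm1 held 1, and Flrt2 held 1 E-box and 1 TGACG, found in 7.15% and 20.8% of all windows. Those of Lrrtm3 and Flrt3 held none. A match describes letters in the window and nothing more.

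Total counts ran from 33795369 to 49824569 per library. Levels are counts-per-million (CPM) after scaling by trimmed-mean factors. The 10 markers of all neurons were detected in every group and summed to 6608 to 7952 CPM. Astrocyte markers summed to 965 to 1194 CPM with Empty_Vector, 738 to 1075 with shRNA, 736.5 to 931 with shRNA_2bp and 482.5 to 695.5 with shRNA_5bp, and those of the oligodendrocyte lineage to 59.1 to 71.3, 86.8 to 106, 55.1 to 62.5 and 88.1 to 106.5 CPM. These sums need not hold for each marker. For astrocytes, the median log2 fold change of the markers against Empty_Vector was 0.19 with shRNA, −0.65 with shRNA_2bp and −0.59 with shRNA_5bp. For the oligodendrocyte lineage, over the 7 of 9 markers tested, it was 0.50, −0.01 and 0.01 in the same order. The part of both marker sets in the differences below was not tested. In all 16 libraries, microglial markers summed to at most 3.75 CPM. In each group 1 of the 9 was at 0 in every library, C1qb with Empty_Vector, C1qa with shRNA and shRNA_2bp, and Itgam with shRNA_5bp. Endothelial, mural and fibroblast markers summed to 24.3 to 44.5 CPM in 15 libraries and to 128 CPM in shRNA_5bp replicate 3. The first principal component (40.8% of variance) set the shRNA_2bp libraries apart and the second (24.5%) the shRNA_5bp libraries. Rtn4 was chosen by its value, as the gene lowest with shRNA relative to Empty_Vector among genes above a floor on mean CPM. It was at 837 to 891 CPM with Empty_Vector, 29.9 to 31.3 with shRNA, 122 to 130.3 with shRNA_2bp and 773 to 856 with shRNA_5bp. In these bulk libraries, fewer cells of a type and less RNA per cell cannot be told apart.

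Per kilobase of exon, Lrrtm1 had the highest level of the 10 genes in every group and the lowest gene differed by group. With Empty_Vector the order ran from Lrrtm1 (32.8 ± 2.23 CPM per kb; SD, n = 4) through Elfn2 (22.3 ± 1.37), Flrt3 (19.1 ± 1.42), Lrrtm2 (14.8 ± 1.09), Lrrtm3 (11.4 ± 0.502), Flrt2 (10.8 ± 0.782), Lrrtm4 (8.01 ± 0.472), Sdk2 (5.53 ± 0.392) and Elfn1 (4.27 ± 0.321) to Sdk1 (1.73 ± 0.157). Of neighbours in that order, the libraries of Elfn2 and Flrt3 overlapped, as did those of Lrrtm3 and Flrt2, and the others did not. The lowest level was that of Elfn1 with shRNA (1.61 ± 0.278 CPM per kb) and shRNA_2bp (1.81 ± 0.277), where it overlapped Sdk1. With shRNA_5bp it was that of Sdk2 (0.682 ± 0.0379), which lay below Sdk1 (1.25 ± 0.122) in every library.

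**Figure D1:**
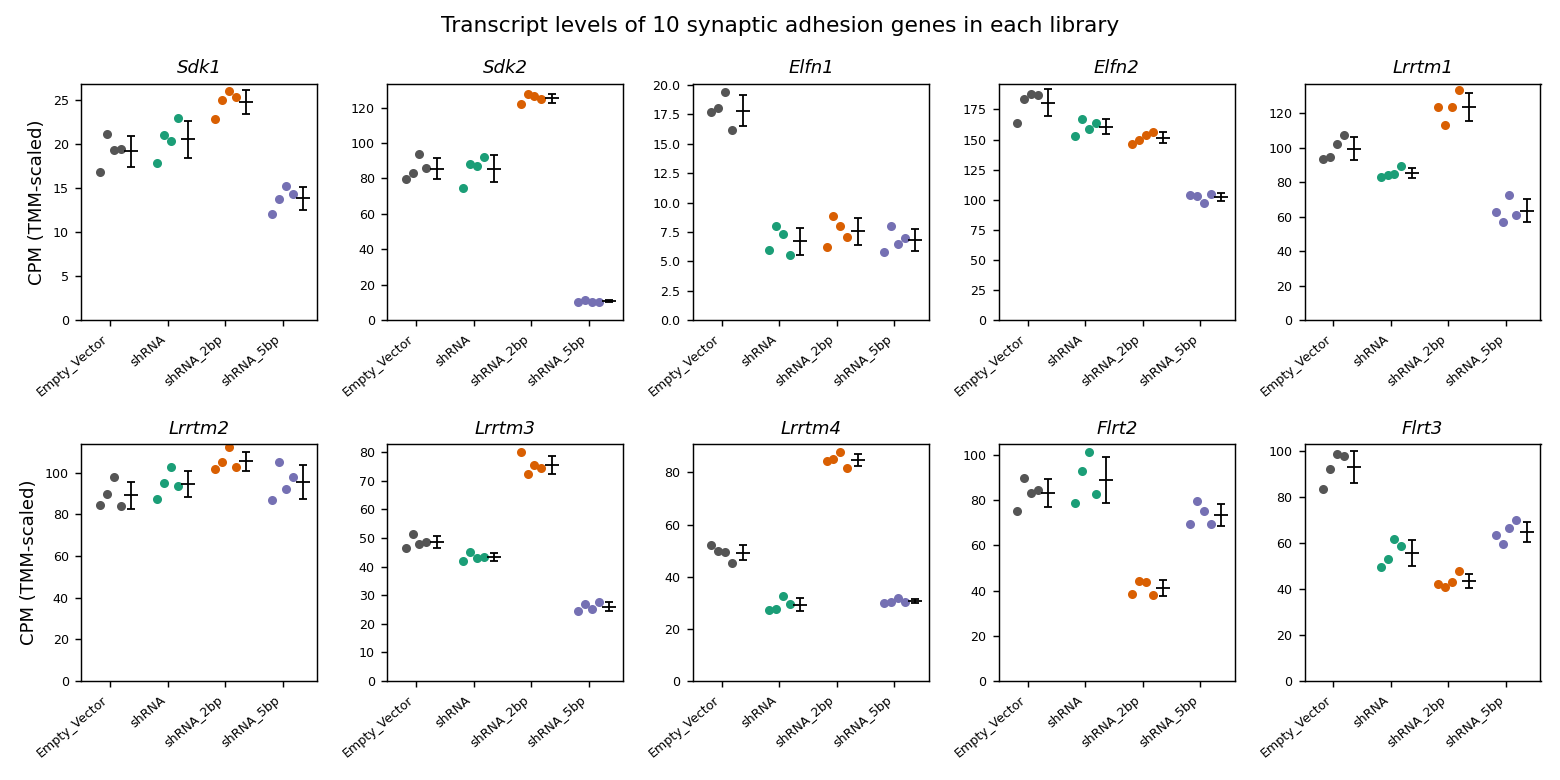
Level of each gene in CPM (y axis, from 0, 1 scale a panel) in the 4 libraries of each group (points), with the group mean and SD (n = 4). The Sdk2 points of shRNA_5bp lie between 10.1 and 11.4 CPM, below all 12 others, and the Elfn1 points of the 3 hairpin groups lie between 5.58 and 8.88 CPM, below the 4 of Empty_Vector.

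Against Empty_Vector, the 3 hairpin groups differed in how many of the 10 genes stood higher and lower. A gene is called where edgeR's quasi-likelihood test on all 19479 genes gave a Benjamini-Hochberg adjusted p below 0.05. With shRNA, 6 genes were called lower and none higher, where 19.5% of all genes tested were called lower and 20.8% higher. With shRNA_2bp, all 10 were called, 6 higher and 4 lower, where 32.5% of genes were called higher and 30.8% lower. With shRNA_5bp, 8 were called lower and none higher, where 26.5% were called lower and 28.4% higher. The members' median log2 fold changes were −0.17, 0.28 and −0.67 in the same order, beside 0.01, −0.01 and 0.03 over all genes tested. The genes were chosen with these contrasts known, so nothing is read from those counts. The contrasts share the 4 Empty_Vector libraries, and values are set side by side below.

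**Figure D2:**
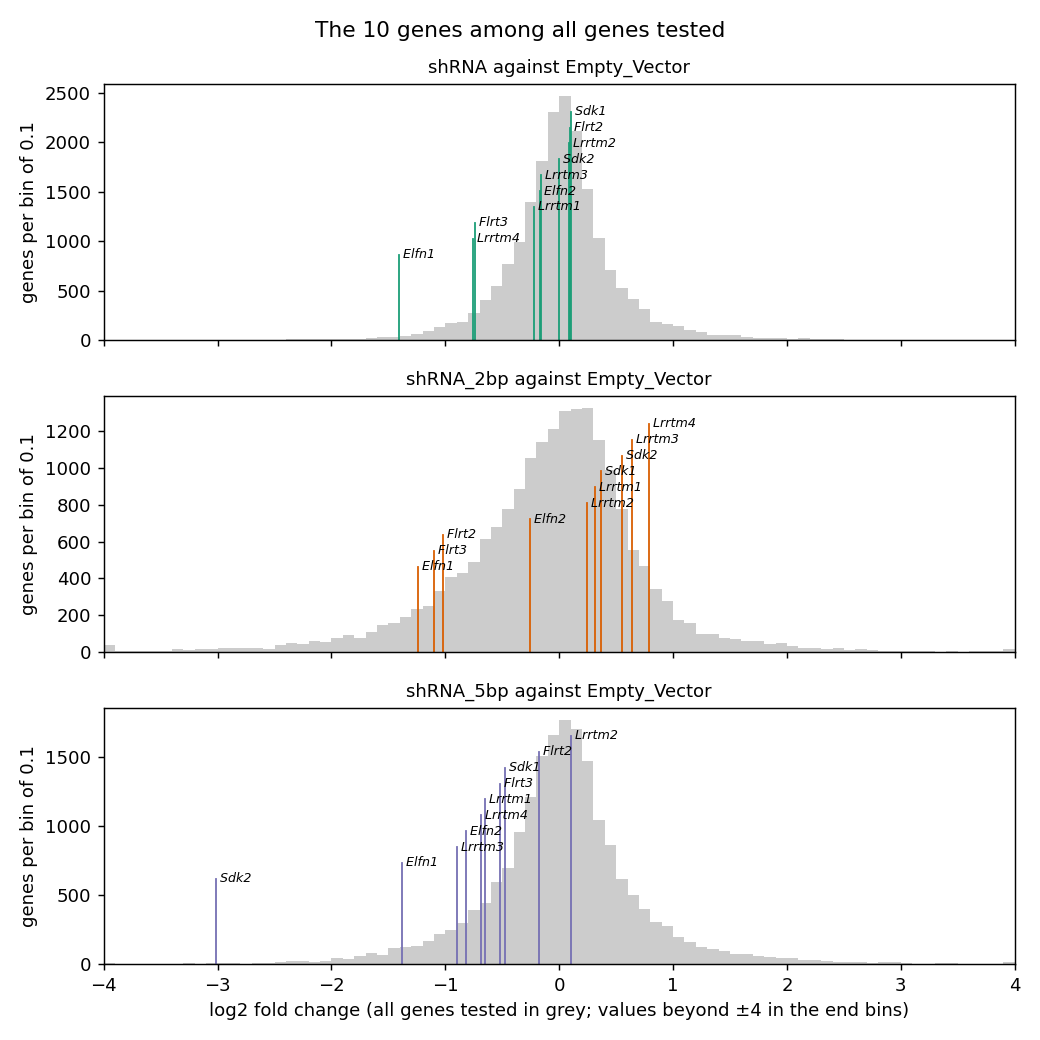
Histogram of the log2 fold changes of all 19479 genes tested (grey, genes per bin of 0.1) in each hairpin group against Empty_Vector, with the 10 genes as coloured lines; the heights of the lines only spread the names. Sdk2 is far to the left with shRNA_5bp (−3.02), and the Lrrtm and sidekick genes lie to the right of 0 with shRNA_2bp.

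Sdk2, a sidekick (ENSMUSG00000041592.16; chromosome 11, 113776374 to 114067046, minus strand), had the largest difference of the 10 genes. Its levels were 79.9, 82.8, 93.9 and 85.6 CPM with Empty_Vector and 74.5, 87.9, 87.1 and 92.3 CPM with shRNA. They were 122, 127, 127 and 125 CPM with shRNA_2bp, and 10.1, 11.4, 10.3 and 10.4 CPM with shRNA_5bp, from 372 to 581 counts a library. The Empty_Vector and shRNA libraries overlapped, every shRNA_2bp library lay above both groups, and every shRNA_5bp library lay far below all others. Against Empty_Vector the log2 fold change was −3.02 ± 0.07 (SE) with shRNA_5bp, 8.10-fold lower, and 0.55 ± 0.06 with shRNA_2bp, both called. With shRNA it was −0.00 ± 0.06 and not called. Sdk1, its relative (ENSMUSG00000039683.16; chromosome 5, 141241490 to 142215586, plus strand), was at 16.9, 21.1, 19.3 and 19.4 CPM with Empty_Vector and 17.9, 21.1, 20.3 and 22.9 CPM with shRNA. It was at 22.8, 25.1, 26.0 and 25.3 CPM with shRNA_2bp and 12.0, 13.7, 15.3 and 14.3 CPM with shRNA_5bp. Like Sdk2 it was highest with shRNA_2bp and lowest with shRNA_5bp, over a smaller range. It was called higher with shRNA_2bp (log2 fold change 0.37 ± 0.08) and lower with shRNA_5bp (−0.48 ± 0.08), and was not called with shRNA (0.10 ± 0.08).

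The sidekick balance turned over with shRNA_5bp. The ratio of Sdk2 to Sdk1 per kilobase was 3.21 ± 0.300 with Empty_Vector, 2.98 ± 0.0769 with shRNA and 3.63 ± 0.152 with shRNA_2bp. With shRNA_5bp it was 0.551 ± 0.0554 (SD, n = 4), with all 4 libraries between 0.486 and 0.599, so that Sdk1 was then the more abundant sidekick. Markers of excitatory neurons were also lowest with shRNA_5bp: summed over 12 genes they ranged from 2052 to 2261 CPM with Empty_Vector, 1953 to 2018 with shRNA, 2122 to 2211 with shRNA_2bp and 1191 to 1276 with shRNA_5bp. With shRNA_2bp the sum lay within the Empty_Vector range, and with shRNA below it. Of the 12, 4 were called lower and 5 higher with shRNA, and 2 lower and 7 higher with shRNA_2bp. With shRNA_5bp, 7 were called lower and 1 higher. Of all genes tested, 19.5% were called lower and 20.8% higher with shRNA, 30.8% and 32.5% with shRNA_2bp, and 26.5% and 28.4% with shRNA_5bp. The median log2 fold changes of the 12 were 0.03, 0.29 and −0.21 in the same order, and none of the 12 was at 0 in a group. Slc17a7, the vesicular glutamate transporter VGLUT1 and 1 of the 12, averaged 612 CPM with Empty_Vector and 81.7 CPM with shRNA_5bp, a larger difference than that of the other 11 summed. With shRNA and shRNA_2bp, Slc17a7 averaged 573 and 725 CPM. Per 1000 CPM of the 12 markers summed, Sdk2 was at 39.7 ± 2.41 CPM with Empty_Vector and 43.0 ± 3.76 with shRNA. On that scale it was at 57.9 ± 1.90 with shRNA_2bp, the highest mean, and 8.68 ± 0.634 with shRNA_5bp, the lowest. The part of these markers in the Sdk2 result was not tested.

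**Figure D3:**
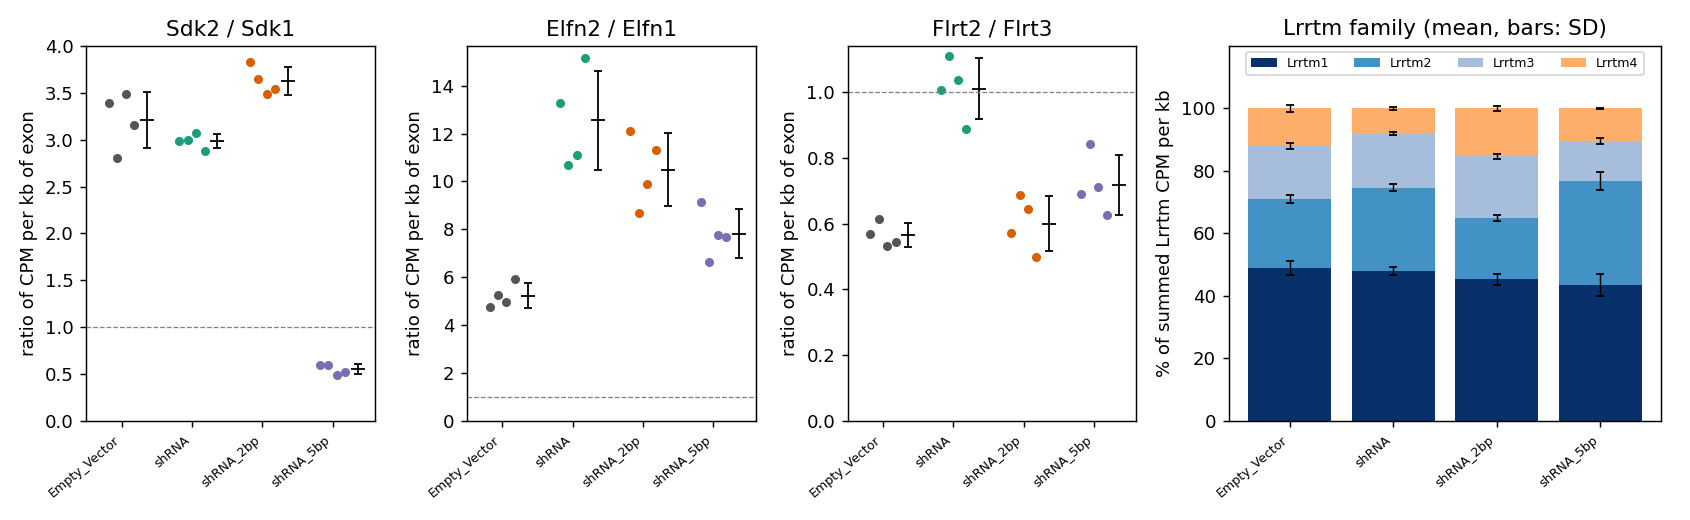
Ratios of CPM per kb of exon between relatives (first 3 panels; points are libraries, bars the mean and SD, n = 4; the dashed line is a ratio of 1) and the mean share of each Lrrtm gene in the summed Lrrtm level (last panel, bars SD). Sdk2 over Sdk1 is at least 2.81 in 12 libraries and at most 0.599 in the 4 of shRNA_5bp, and Lrrtm2 takes 33.2% of the Lrrtm level there against 19.5% with shRNA_2bp.

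Elfn1 (ENSMUSG00000048988.8; chromosome 5, 139907943 to 139974722, plus strand), the postsynaptic partner of metabotropic glutamate receptors in interneurons, was lower with every hairpin. Its levels were 17.7, 18.0, 19.4 and 16.2 CPM with Empty_Vector and 5.93, 8.02, 7.35 and 5.58 CPM with shRNA. They were 6.21, 8.88, 8.02 and 7.09 CPM with shRNA_2bp and 5.84, 7.98, 6.45 and 6.99 CPM with shRNA_5bp. No hairpin library reached the lowest Empty_Vector library, and the 3 hairpin groups overlapped one another. Against Empty_Vector Elfn1 was called lower in each, with log2 fold changes of −1.41 ± 0.12 (2.65-fold) with shRNA, −1.24 ± 0.12 (2.37-fold) with shRNA_2bp and −1.38 ± 0.12 (2.61-fold) with shRNA_5bp.

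Markers of inhibitory neurons were lower in the same groups. Summed over 14 genes they ranged from 859.5 to 971 CPM with Empty_Vector, 219 to 382 with shRNA, 264 to 376 with shRNA_2bp and 349 to 467 with shRNA_5bp. Of the 14, 12 were called lower with shRNA, 10 lower and 2 higher with shRNA_2bp, and 12 lower with shRNA_5bp. The shares of all genes tested called lower were 19.5%, 30.8% and 26.5% in the same order, and those called higher 20.8%, 32.5% and 28.4%. None of the 14 markers was at 0 in a group. Per 1000 CPM of those markers Elfn1 was at 19.7 ± 2.03 CPM with Empty_Vector, 24.0 ± 3.81 with shRNA, 23.3 ± 1.80 with shRNA_2bp and 17.3 ± 0.580 with shRNA_5bp. On that scale each hairpin group overlapped Empty_Vector. The part of these markers in the Elfn1 result was not tested.

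Elfn2 (ENSMUSG00000043460.7; chromosome 15, 78667331 to 78718771, minus strand), which also binds group III metabotropic receptors, was the more abundant of the pair and moved less. Its levels were 164, 184, 188 and 187 CPM with Empty_Vector, 153, 167, 159 and 164 CPM with shRNA, 146, 149.7, 154 and 156 CPM with shRNA_2bp, and 104, 103, 97.6 and 105 CPM with shRNA_5bp. The shRNA_5bp libraries lay below all others, and the shRNA libraries overlapped the lowest Empty_Vector library. Elfn2 was called lower with shRNA (−0.17 ± 0.04), shRNA_2bp (−0.25 ± 0.04) and shRNA_5bp (−0.82 ± 0.04). The ratio of Elfn2 to Elfn1 per kilobase was 5.23 ± 0.508 with Empty_Vector, 12.6 ± 2.07 with shRNA, 10.5 ± 1.52 with shRNA_2bp and 7.82 ± 1.02 with shRNA_5bp. An antisense gene, 1700041B01Rik, shares 266 exon bases with Elfn2 (3.28%) and was at or below 0.110 CPM in every library. How reads in those bases were counted is not known.

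The Lrrtm genes, organizers of excitatory synapses, had their highest mean with shRNA_2bp, all 4 of them, and Lrrtm1, Lrrtm3 and Lrrtm4 were called lower with shRNA and shRNA_5bp. Lrrtm4 (ENSMUSG00000052581.13; chromosome 6, 80018877 to 80810143, plus strand), which binds glypicans, was at 52.3, 49.8, 49.6 and 45.3 CPM with Empty_Vector and 27.3, 27.6, 32.5 and 29.4 CPM with shRNA. It was at 84.3, 85.3, 87.7 and 81.8 CPM with shRNA_2bp and 29.7, 30.4, 31.8 and 30.4 CPM with shRNA_5bp. The shRNA and shRNA_5bp libraries overlapped, and the Empty_Vector and shRNA_2bp libraries each stood clear of every other group. Lrrtm4 was called lower with shRNA (−0.75 ± 0.05) and shRNA_5bp (−0.69 ± 0.05), and higher with shRNA_2bp (0.78 ± 0.05, 1.72-fold). An antisense gene, Gm4409, shares 1543 exon bases with it (25.1%) and was at or below 0.0706 CPM in every library. The strand setting of the counting is not known, so neither is the handling of reads in those bases. If such reads were left out, the Lrrtm4 level per kilobase is too low.

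Lrrtm3 (ENSMUSG00000042846.8; chromosome 10, 63928472 to 64090277, minus strand), which binds neurexins and proteoglycans, was at 46.3, 51.4, 47.9 and 48.6 CPM with Empty_Vector and 41.8, 45.1, 43.1 and 43.4 CPM with shRNA. It was at 79.9, 72.3, 75.4 and 74.4 CPM with shRNA_2bp and 24.6, 26.8, 25.0 and 27.6 CPM with shRNA_5bp. None of the 4 groups overlapped another. It was called in each contrast with Empty_Vector, at −0.16 ± 0.05 with shRNA, 0.64 ± 0.05 with shRNA_2bp and −0.90 ± 0.05 with shRNA_5bp.

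Lrrtm1 (ENSMUSG00000060780.2; chromosome 6, 77242689 to 77257791, plus strand), a neurexin ligand, was at 93.3, 94.3, 102 and 108 CPM with Empty_Vector and 83.0, 84.3, 84.9 and 89.7 CPM with shRNA. It was at 124, 113, 123 and 133 CPM with shRNA_2bp and 62.8, 57.1, 72.7 and 60.9 CPM with shRNA_5bp. Its groups kept apart in the same order as those of Lrrtm3. The log2 fold changes were −0.22 ± 0.06 with shRNA, 0.31 ± 0.06 with shRNA_2bp and −0.65 ± 0.06 with shRNA_5bp, all called.

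Lrrtm2 (ENSMUSG00000071862.3; chromosome 18, 35209003 to 35215024, minus strand), also a neurexin ligand, varied least. It was at 84.6, 89.9, 98.2 and 84.1 CPM with Empty_Vector, 87.4, 94.95, 103 and 93.5 CPM with shRNA, 102, 105, 112 and 103 CPM with shRNA_2bp, and 86.7, 105, 92.2 and 98.1 CPM with shRNA_5bp. The shRNA_2bp libraries lay above those of Empty_Vector and overlapped the other hairpin groups. Lrrtm2 was called higher with shRNA_2bp (0.24 ± 0.06) and was not called with shRNA (0.08 ± 0.06) or shRNA_5bp (0.10 ± 0.06).

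Within the summed Lrrtm level per kilobase, Lrrtm1 took the largest mean share in every group, from 43.6 ± 3.56% with shRNA_5bp to 48.9 ± 2.18% with Empty_Vector. The share of Lrrtm2 was 22.1 ± 1.27% with Empty_Vector, 26.7 ± 1.12% with shRNA, 19.5 ± 0.9997% with shRNA_2bp and 33.2 ± 2.84% with shRNA_5bp. The share of Lrrtm4 was 12.0 ± 1.03%, 8.07 ± 0.475%, 15.4 ± 0.709% and 10.4 ± 0.131% in the same order, and that of Lrrtm3 was lowest with shRNA_5bp, at 12.8 ± 0.827%. Every Lrrtm2 library of shRNA_5bp, from 30.4% to 36.8%, lay above every library of the other groups.

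Flrt3 and Flrt2, ligands of latrophilins and UNC5 receptors, did not follow the Lrrtm genes. Flrt3 (ENSMUSG00000051379.12; chromosome 2, 140650914 to 140671469, minus strand) was at 83.5, 92.0, 98.6 and 97.5 CPM with Empty_Vector and 49.4, 52.8, 61.7 and 58.8 CPM with shRNA. It was at 42.2, 40.7, 42.8 and 47.8 CPM with shRNA_2bp and 63.6, 59.5, 66.5 and 69.8 CPM with shRNA_5bp. Every hairpin library lay below every Empty_Vector library. It was called lower with shRNA (−0.74 ± 0.07), shRNA_2bp (−1.10 ± 0.07, 2.14-fold) and shRNA_5bp (−0.52 ± 0.07).

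Flrt2 (ENSMUSG00000047414.6; chromosome 12, 95692226 to 95785215, plus strand) was at 75.2, 89.9, 83.3 and 84.3 CPM with Empty_Vector and 79.0, 93.0, 102 and 82.8 CPM with shRNA. It was at 38.3, 44.4, 43.8 and 37.8 CPM with shRNA_2bp and 69.6, 79.4, 75.1 and 69.3 CPM with shRNA_5bp. Only the shRNA_2bp libraries stood apart from the rest. Flrt2 was called lower with shRNA_2bp (−1.02 ± 0.08, 2.03-fold) and was not called with shRNA (0.10 ± 0.08). With shRNA_5bp it was not called (−0.18 ± 0.08), but it was called lower under 10 of 23 other settings (log2 fold change −0.23 to −0.18), DESeq2 among them at −0.20. Those settings include leaving out Empty_Vector replicate 1 (−0.23), shRNA replicate 1 (−0.18), shRNA replicate 3 (−0.18) or shRNA_5bp replicate 2 (−0.22). The ratio of Flrt2 to Flrt3 per kilobase was 0.565 ± 0.0364 with Empty_Vector, 1.01 ± 0.0929 with shRNA, 0.6001 ± 0.0829 with shRNA_2bp and 0.717 ± 0.0908 with shRNA_5bp. With shRNA the ratio lay between 0.887 and 1.11, above every library of the other groups.

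**Figure D4:**
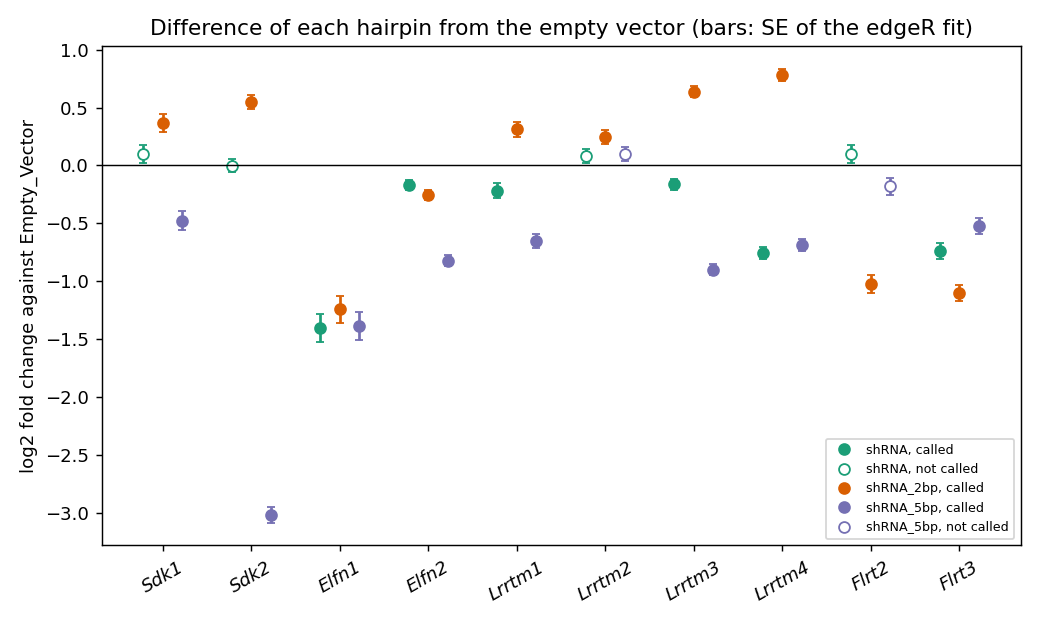
Log2 fold change of each gene in each hairpin group against Empty_Vector, with SE (filled where called, open where not). The shRNA_2bp points lie above 0 for the sidekick and Lrrtm genes and below 0 for the Elfn and Flrt genes, and all called shRNA and shRNA_5bp points lie below 0.

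The mutated hairpins were also set against each other and against the unmutated hairpin. These contrasts compare no Empty_Vector level, but the fit's filter, scaling and estimate of spread used those libraries too. For shRNA_2bp against shRNA_5bp, 7 of the 10 genes were called higher and 2 lower, where 32.3% of all genes tested were called higher and 33.6% lower. Sdk2 was 11.8-fold higher with shRNA_2bp (log2 fold change 3.57 ± 0.07), Lrrtm3 2.91-fold (1.54 ± 0.05), Lrrtm4 2.77-fold (1.47 ± 0.05), Lrrtm1 1.95-fold (0.96 ± 0.06), Sdk1 1.80-fold (0.84 ± 0.08) and Elfn2 1.48-fold (0.57 ± 0.04). Flrt2 (−0.84 ± 0.08) and Flrt3 (−0.58 ± 0.07) were called lower, and Elfn1 was not called (0.14 ± 0.12). Lrrtm2 was called higher too (0.14 ± 0.06), and its libraries in the 2 groups overlapped. Its call was lost under 12 of 23 other settings (0.10 to 0.16), 9 of which leave out 1 library. Those libraries were Empty_Vector replicate 2 (0.14), shRNA replicates 2 (0.14) and 4 (0.14), shRNA_2bp replicates 2 (0.15), 3 (0.11) and 4 (0.16), and shRNA_5bp replicates 1 (0.10), 3 (0.12) and 4 (0.15).

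For shRNA against shRNA_2bp, 6 genes were called lower and 2 higher, where 31.5% of genes tested were called lower and 31.2% higher. Those lower with shRNA were Lrrtm4 (−1.54 ± 0.05), Lrrtm3 (−0.80 ± 0.05), Sdk2 (−0.55 ± 0.06), Lrrtm1 (−0.53 ± 0.06), Sdk1 (−0.27 ± 0.08) and Lrrtm2 (−0.16 ± 0.06), and those higher were Flrt2 (1.12 ± 0.08) and Flrt3 (0.36 ± 0.07). The Sdk1 and Lrrtm2 libraries of the groups overlapped. The Lrrtm2 call was lost under 6 of 23 other settings, among them without shRNA replicate 1 (−0.12), 2 (−0.16) or 4 (−0.15) or shRNA_2bp replicate 3 (−0.13). Elfn2 (0.09 ± 0.04), not called here, was called higher under 3 of them, at 0.10 to 0.12. Elfn1 was not called (−0.16 ± 0.12).

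For shRNA against shRNA_5bp, 6 genes were called higher and 1 lower, where 26.8% of genes tested were called higher and 28.5% lower. Sdk2 was 8.08-fold higher with shRNA (3.02 ± 0.07), followed by Lrrtm3 (0.74 ± 0.05), Elfn2 (0.65 ± 0.04), Sdk1 (0.57 ± 0.08), Lrrtm1 (0.43 ± 0.06) and Flrt2 (0.28 ± 0.08). Flrt3 was called lower (−0.22 ± 0.07), a call lost without shRNA replicate 1 (−0.17, edgeR adjusted p = 0.0530). The Flrt2 and Flrt3 libraries of these groups overlapped. Lrrtm4 (−0.07 ± 0.05), Elfn1 (−0.02 ± 0.13) and Lrrtm2 (−0.02 ± 0.06) were not called.

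Each profile was compared with those of all other named genes at a mean log2 CPM of at least 2, as the root-mean-square difference of log2(CPM + 0.5), centred on the gene's mean, over the 16 libraries. For Sdk2 the nearest gene was Slc17a7, at 0.19 log2 units where Sdk2 itself varied by 1.38. Slc17a7 averaged 612 CPM with Empty_Vector, 573 with shRNA, 725 with shRNA_2bp and 81.7 with shRNA_5bp, and Trp53inp2 (0.25) and Ccng1 (0.31) came next. For Elfn1 (own spread 0.59) it was Grik1, a kainate receptor subunit, at 0.16, with means of 40.5, 13.6, 18.0 and 16.4 CPM in the same order, then Insig1 (0.17) and Sytl2 (0.18). Lrrtm3 was nearest to Rspry1 (0.08), Poglut1 and Tmem185a, and Lrrtm4 to Kif9 (0.13), Scrn3 and Tmem65. Flrt3 was nearest to Ptar1 (0.08), Apc and Snx30, and Flrt2 to Prickle2 (0.10), Usp9x and Xk. For the rest, the nearest were Stag2, Lzts3 and Dnmt3a to Sdk1, Rgl1, Zfp846 and Mtmr4 to Elfn2, Pgrmc2, Cd81 and Map1a to Lrrtm1, and Mycbp2 and Rsf1 to Lrrtm2. The points share libraries and depth, and likeness of profile is a description.

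Known partners and relatives were read from the same fit: 77 genes in 7 lists, of which 76 passed the filter and Grm6 did not. With shRNA 40 were called lower and 8 higher, with shRNA_2bp 46 and 16, and with shRNA_5bp 43 and 15. Of all genes tested, 19.5% were called lower and 20.8% higher with shRNA, 30.8% and 32.5% with shRNA_2bp, and 26.5% and 28.4% with shRNA_5bp. The counts in each list below are to be read beside these shares. The median log2 fold changes of the partners and relatives were −0.18, −0.30 and −0.28, beside 0.01, −0.01 and 0.03 over all genes tested. These lists, too, were chosen with earlier results of these data known, so nothing is read from their counts and medians. Adjusted p-values below are edgeR's, over all genes tested, and n is 4 libraries a group.

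**Figure D5:**
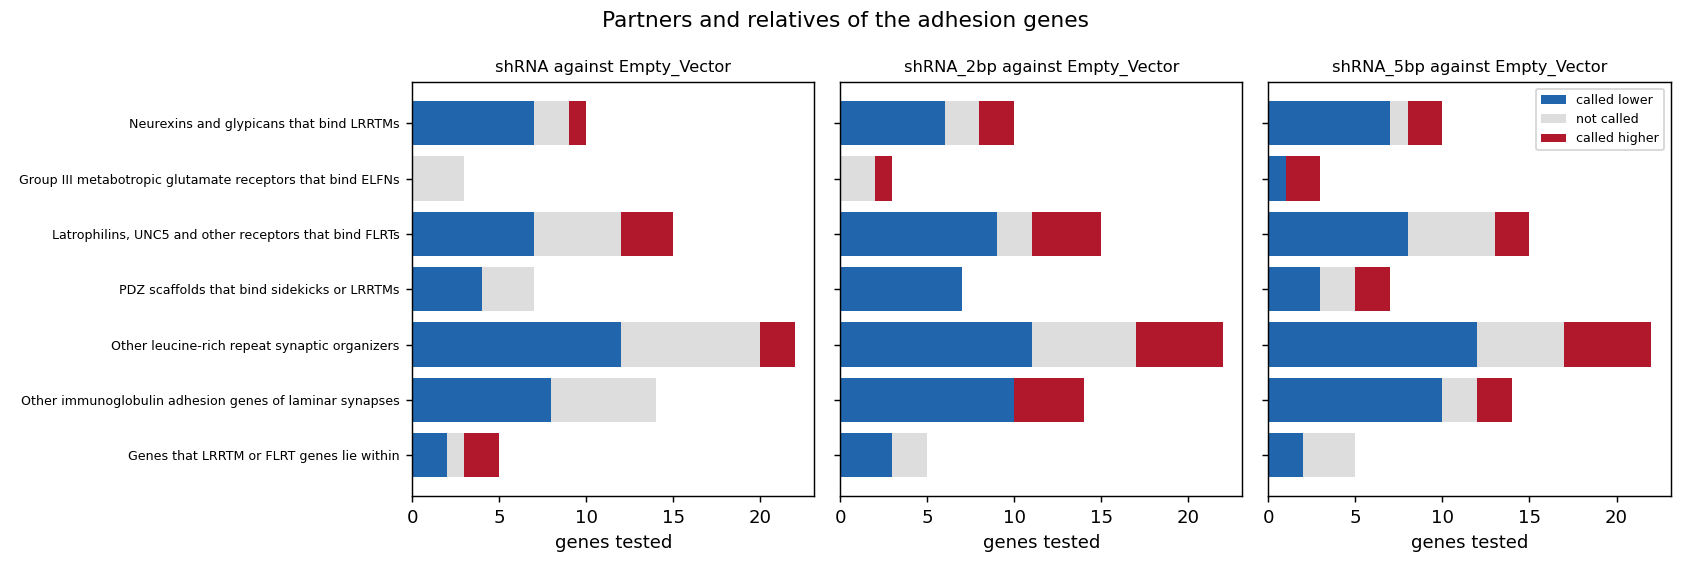
Number of genes called lower (blue), not called (grey) and called higher (red) against Empty_Vector in each list of partners and relatives, 1 panel a hairpin. All 7 PDZ scaffolds are called lower with shRNA_2bp, and none of the 3 metabotropic receptors tested is called with shRNA.

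Among the 10 presynaptic neurexins, glypicans and the receptor phosphatase Ptprs that bind LRRTMs, 7 were called lower and 1 higher with shRNA, 6 and 2 with shRNA_2bp, and 7 and 2 with shRNA_5bp. The glypican Gpc5 fell from 15.8 ± 0.922 CPM (SD) with Empty_Vector to 9.22 ± 0.718 with shRNA (log2 fold change −0.78 ± 0.09, adjusted p = 5.93e-07), 3.82 ± 0.672 with shRNA_2bp (−2.05 ± 0.10, adjusted p = 6.02e-14) and 6.43 ± 0.472 with shRNA_5bp (−1.30 ± 0.10, adjusted p = 1.09e-10). Ptprs, the phosphatase that LRRTM4 reaches through glypicans, fell with shRNA (−0.20 ± 0.04, adjusted p = 0.000197), shRNA_2bp (−0.38 ± 0.04, adjusted p = 1.08e-08) and shRNA_5bp (−0.37 ± 0.04, adjusted p = 3.21e-08). Gpc2 rose with shRNA_5bp, from 0.673 ± 0.0735 to 3.05 ± 0.421 CPM (2.18 ± 0.19, adjusted p = 1.95e-09).

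Of the 3 group III metabotropic receptors that ELFNs bind, none was called with shRNA, 1 was called higher with shRNA_2bp, and 2 higher and 1 lower with shRNA_5bp. Grm8 was at 6.49 ± 0.274 CPM with Empty_Vector and 19.7 ± 3.25 with shRNA_5bp (1.60 ± 0.13, adjusted p = 4.73e-09). Grm7, the receptor that Elfn1 recruits in trans, fell there from 107 ± 1.47 to 86.8 ± 4.46 CPM (−0.31 ± 0.05, adjusted p = 5.30e-05). With shRNA_2bp Grm7 stood at 107 ± 3.31 CPM (−0.00 ± 0.05, adjusted p = 0.951) and Grm4 rose (0.33 ± 0.07, adjusted p = 0.000215).

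Of the 15 latrophilins, teneurins, UNC5 and other receptors that bind FLRTs, 7 were called lower and 3 higher with shRNA, 9 and 4 with shRNA_2bp, and 8 and 2 with shRNA_5bp. With shRNA_2bp, where both Flrt genes were low, the teneurin Tenm3 fell from 275 ± 16.7 to 72.7 ± 3.15 CPM (−1.92 ± 0.06, adjusted p = 2.80e-17), and the latrophilins Adgrl2 (−0.83 ± 0.05) and Adgrl3 (−0.86 ± 0.05) fell as well. With shRNA the teneurin Tenm1 fell (−0.91 ± 0.12, adjusted p = 2.26e-05) and the guidance receptor Robo1 rose (0.49 ± 0.06, adjusted p = 6.25e-07). With shRNA_5bp Unc5d, a repulsive receptor for FLRT2, fell from 154 ± 8.64 to 65.2 ± 6.70 CPM (−1.24 ± 0.10, adjusted p = 1.70e-08), Unc5b fell (−1.09 ± 0.07, adjusted p = 6.34e-11) and Unc5a rose (0.48 ± 0.05, adjusted p = 4.79e-08).

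Of the 7 PDZ scaffolds that bind sidekicks or LRRTMs, 4 were called lower with shRNA, all 7 lower with shRNA_2bp, and 3 lower and 2 higher with shRNA_5bp. Dlg2, which encodes the postsynaptic density protein PSD-93, fell with shRNA_2bp from 809 ± 29.0 to 103 ± 3.98 CPM (−2.98 ± 0.04, adjusted p = 1.86e-22), and with shRNA_5bp to 469.9 ± 11.0 CPM (−0.78 ± 0.04, adjusted p = 2.50e-13). Magi2, a sidekick scaffold, fell with shRNA (−0.69 ± 0.05, adjusted p = 1.16e-09) and shRNA_2bp (−0.56 ± 0.05, adjusted p = 7.03e-09). With shRNA_5bp, where Sdk2 was low, Magi2 rose from 109.8 ± 3.77 to 153 ± 5.21 CPM (0.48 ± 0.05, adjusted p = 9.32e-08).

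Among 22 other leucine-rich repeat organizers, 12 were called lower and 2 higher with shRNA, 11 and 5 with shRNA_2bp, and 12 and 5 with shRNA_5bp. Flrt1, the remaining member of the FLRT family, fell with shRNA_2bp from 54.8 ± 2.05 to 29.9 ± 1.20 CPM (−0.88 ± 0.05, adjusted p = 1.73e-13) and with shRNA_5bp to 36.8 ± 1.58 CPM (−0.58 ± 0.04, adjusted p = 3.04e-10). Lrrc4c, a netrin-G ligand, fell with shRNA_2bp (−1.16 ± 0.07, adjusted p = 3.89e-12) and shRNA_5bp (−1.07 ± 0.07, adjusted p = 2.56e-11). Among 14 other immunoglobulin adhesion genes, 8 were called lower and none higher with shRNA, 10 and 4 with shRNA_2bp, and 10 and 2 with shRNA_5bp. Cadm3, a SynCAM family member, fell with shRNA (−0.64 ± 0.04), shRNA_2bp (−1.34 ± 0.04) and shRNA_5bp (−1.07 ± 0.04). Cadm4 fell from 174 ± 4.22 to 65.9 ± 3.73 CPM with shRNA (−1.40 ± 0.05, adjusted p = 6.68e-15), and Cadm2 from 218 ± 12.5 to 64.4 ± 5.03 CPM with shRNA_5bp (−1.76 ± 0.07, adjusted p = 5.03e-15).

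Several of the 10 genes lie inside a larger gene on the opposite strand: Lrrtm1 in Ctnna2, Lrrtm2 in Ctnna1, Lrrtm3 in Ctnna3 and Flrt3 in Macrod2. They share no exon base with it except Lrrtm2, which shares 95 bases (1.58% of its exons) with Ctnna1, a gene at 9.69 to 22.6 CPM. The strand setting of the counting is not given in the sources used here, so reads there cannot be assigned to a strand. The host genes did not all follow their guests. With shRNA_2bp, where Lrrtm1 was called higher, Ctnna2 fell from 166 ± 2.66 to 93.4 ± 2.69 CPM (−0.83 ± 0.04, adjusted p = 1.48e-13). With shRNA, where Lrrtm1 was called lower, Ctnna2 fell too (−0.37 ± 0.04, adjusted p = 3.29e-07). With shRNA_5bp, where Lrrtm1 was also called lower, Ctnna2 was not called (−0.10 ± 0.04, adjusted p = 0.05425). Macrod2 fell with shRNA (−0.91 ± 0.06, adjusted p = 1.02e-10) and shRNA_2bp (−1.71 ± 0.06, adjusted p = 6.19e-16), and with shRNA_5bp (−0.20 ± 0.06, adjusted p = 0.00749), and its guest Flrt3 was called lower with each. Ctnna3, at 1.13 ± 0.165 CPM with Empty_Vector, fell to 0.443 ± 0.104 CPM with shRNA_5bp (−1.37 ± 0.20, adjusted p = 4.73e-06) and rose with shRNA (0.78 ± 0.17, adjusted p = 0.00104), where Lrrtm3 was called lower.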

How the data were processed

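The tools credited here to the authors come from the submitters' processing notes: STAR 2.7.2b, the build GRCm38.p6, cutadapt 1.15, Trim Galore 0.6.0, bcl2fastq 2.20.0.422, and, with no version, featureCounts and edgeR. Per the labels' protocols, libraries were directional (dUTP), from 100 ng of total RNA after ribosomal depletion, with 12 PCR cycles. The deposited file holds the authors' raw counts for 55335 Ensembl genes in 16 libraries; the strand setting, annotation release and treatment of multi-mapping reads are not given in the sources used here. Of the gene IDs, 55154 matched GENCODE M21, with or without version.

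Genes were filtered with filterByExpr by group (19479 kept), scaled with TMM and modelled by robust quasi-likelihood (edgeR 4.0.16 under R 4.3.3), with all 16 libraries and 1 coefficient a group. The 6 pairwise contrasts were tested on 2 sides, and a gene is called at a Benjamini-Hochberg adjusted p below 0.05 over all genes tested. SE is the log2 fold change over the root of F. CPM per kb used GENCODE exon lengths. Fits were tested on simulated data in which far fewer genes changed than were called here. That test therefore cannot say how well the fits do when so many genes differ. Within groups, counts of library pairs differed beyond sampling noise, with chi-square over its degrees of freedom at 3.46 to 24.2. That spread may be technical, so it does not show that the libraries were separate cultures. The fit counts each library as a replicate. DESeq2 1.42.0, other filters, scalings and sample sets, a replicate block and leaving out each library were alternatives.

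The 10 genes and all gene lists were chosen with earlier results of these data known. All 10 are named; of each partner list, up to 4 genes with the smallest p in a contrast with Empty_Vector were open to naming, with all host genes and the 3 nearest profiles of each gene. A few genes open to naming are not reported here. PCR reads carry no molecular identifiers, so counts are not independent molecules. Python 3.11.15, pandas 2.3.3, numpy 2.4.6 and matplotlib 3.10.9 made the tables and plots.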

Additional observations from a re-analysis of the deposited data

Results flagged for a closer look

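Elfn2 in Empty_Vector replicate 1 was at 164 CPM, where the other Empty_Vector libraries were at 184, 187 and 188 CPM. The gap to the nearest library was 0.832 of the group's range, just past Dixon's critical value for 4 libraries. It was the only such case in 40 groups of 4 (10 genes in 4 groups), where chance flags about 1 in 20. Elfn2 was called lower with each hairpin with and without that library.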

How the results depend on the processing

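Over 23 other settings, the number of the 10 genes called kept to 6 for shRNA and 10 for shRNA_2bp against Empty_Vector, and ran from 8 to 9 for shRNA_5bp. It ran from 7 to 9 for shRNA against shRNA_2bp, 6 to 7 for shRNA against shRNA_5bp and 8 to 9 for shRNA_2bp against shRNA_5bp. Called partner genes numbered 45 to 56, 59 to 67 and 56 to 62. The shares of all genes called under these settings are not given here, so the counts describe only how steady the calls were. Of the fold changes of the 10 genes, 1341 kept direction and call, 19 lost the call and 13 gained it. In 7 cases, none of them called, the sign changed: leaving out 1 library in turn gave −0.0413 to 0.0580 for Sdk2 (shRNA against Empty_Vector), and −0.117 to 0.0686 for Elfn1 and −0.0618 to 0.0339 for Lrrtm2 (shRNA against shRNA_5bp). The cause was not tested. Other scalings, among them leaving out Gm26917 and Gm42418, moved the median of all genes by at most 0.04 on the log2 scale. Gm26917 alone took 5.85% to 6.34% of counts with Empty_Vector and 7.37% to 8.02% with shRNA. It took 10.9% to 11.5% with shRNA_2bp and 7.995% to 9.16% with shRNA_5bp. Without both genes, Lrrtm2 lost its calls between shRNA_2bp and the other hairpins. Elfn2 was then called for shRNA against shRNA_2bp, and Flrt2 for shRNA_5bp against Empty_Vector.

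The labels do not say that a replicate number marks a shared culture, and the libraries were not treated as pairs. Same-numbered libraries had correlations of −0.02 to 0.27, over 0.1 in 12 of 24 pairs, and 41 of 48 comparisons were best with the same number, a hint of pairing from the data and not from the design. With a replicate block, 6, 10 and 9 of the genes were called against Empty_Vector, 8, 7 and 9 between hairpins, and 56, 67 and 62 partner genes. The share of all genes called with the block is not given here, so nothing is read from these counts. The block called Flrt2 lower with shRNA_5bp against Empty_Vector (−0.18, edgeR adjusted p = 0.00137). Counts a library were as low as 220 for Elfn1 and 372 for Sdk2, which limits precision there.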
